A study of Mus musculus with 6 samples.

Results

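The genes described here are those that act in the G2 phase and in mitosis, measured in regulatory T cells (Tregs) sorted from the mouse spleen. They were taken from a list of 42 gene symbols. A gene entered when the array annotation gave its symbol alone for a probe set, a group of short probes summarised as a single value. The gene's probe set with the highest mean log2 value represented it. By this rule 41 of the 42 genes were measured, out of 18193 genes in all. The missing one was Ccnb1, for which the annotation used here names no probe set. All 41 had a mean log2 value above 6, the floor used to call a probe set dim.

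Both groups were female NOD mice, a strain prone to autoimmune diabetes, and all carried the BDC2.5 T cell receptor transgene, which recognises a pancreatic islet antigen, and the Foxp3GFP reporter. The treated mice were RAG1o/o, so they could not rearrange receptor genes of their own. They received 37.5 µg of the anti-CD3 antibody KT3 intravenously on each of 5 consecutive days, the first at 17 days of age. They were taken at 28 or 29 days of age, 11 or 12 days after treatment by the labels. By these ages, that interval runs from the first injection and not from the last. The untreated mice were RAG1+/o, with 1 working RAG1 copy, and were 28 or 29 days old. The antibody and the RAG1 genotype changed together, so their parts in any difference cannot be told apart. There were 3 mice in either group, each on an array of its own, and the sorted cells were CD4+ and GFP+ and lacked B220, CD8a and CD11b/c. Foxp3, the transcription factor that defines Tregs, measured 11.43, 11.46 and 12.44 in treated Tregs and 10.75, 9.95 and 11.07 in untreated Tregs. Its treated values all lay above the untreated ones (difference +1.19, 95% interval 0.30 to 2.08, limma adjusted p = 0.914). Ctla4, an inhibitory receptor of Tregs, measured 12.40, 12.78 and 12.93 in treated Tregs and 11.83, 11.81 and 13.10 in untreated Tregs, with overlap. All values are log2 of the deposited intensities, and differences are treated minus untreated. The number of arrays limits the precision.

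A cell that commits to division builds up cyclin A and cyclin B, which switch on the kinase CDK1. Together with the Polo and Aurora kinases, CDK1 drives chromosome condensation, spindle assembly and attachment of chromosomes at their kinetochores. The spindle checkpoint then holds back the ubiquitin ligase APC until all chromosomes are attached, and cytokinesis parts the daughter cells. Most of these genes are transcribed in a late wave through FOXM1, B-MYB and the MuvB complex. MuvB binds a promoter element called the CHR, often a short way downstream of CCAAT boxes bound by NF-Y. Transcripts of this wave are widely read as a measure of dividing cells, and Tregs are known to hold a dividing fraction.

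The sequences of this wave are shown first, because the CHR and CCAAT letters are a feature the choice of genes did not use. RefSeq windows (build GRCm38.p6) from 250 bases before to 50 bases after the annotated start existed for 36 of the 42 genes. The CHR letters TTTGAA, searched on both strands, lay in the windows of 26 of these genes (72.2%), against 20.2% of the 27025 genes in the table. The second form, TTCGAA, lay in 3 (8.3%), against 1.8% of all. CCAAT, on either strand, lay in 28 (77.8%), against 41.1%. Within 50 bases of the start on either side, TTTGAA was found for 24 of the 36 (66.7%), against 5.7% of all genes. Among 45 other mitotic genes with a window, TTTGAA lay in 57.8% and CCAAT in 64.4%. Among 26 S phase genes with a window, TTTGAA lay in 11.5% and CCAAT in 57.7%. Neighbouring matches shared bases in Ube2c and in Cdca8. The 100 bases before the start are printed for 7 of the 9 genes with TTTGAA there, chosen to set genes with lower values in treated Tregs beside genes without them. Each runs 5′ to 3′ on the strand of the gene and ends at the base before the start, with TTTGAA or its reverse complement TTCAAA, and CCAAT or its reverse complement ATTGG, in capitals.
Cdk1 (chr10:69352913-69353012, minus strand): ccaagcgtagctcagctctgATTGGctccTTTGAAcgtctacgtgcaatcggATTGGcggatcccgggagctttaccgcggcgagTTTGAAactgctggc
Cks1b (chr3:89418292-89418391, minus strand): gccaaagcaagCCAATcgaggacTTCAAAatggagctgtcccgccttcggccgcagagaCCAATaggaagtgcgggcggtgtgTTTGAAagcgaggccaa
Cdc20 (chr4:118437344-118437443, minus strand): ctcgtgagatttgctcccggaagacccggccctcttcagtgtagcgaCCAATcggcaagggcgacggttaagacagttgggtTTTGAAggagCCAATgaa
Top2a (chr11:99024190-99024289, minus strand): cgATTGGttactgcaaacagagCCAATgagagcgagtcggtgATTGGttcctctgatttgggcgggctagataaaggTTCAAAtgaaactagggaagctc
Kif11 (chr19:37376282-37376381, plus strand): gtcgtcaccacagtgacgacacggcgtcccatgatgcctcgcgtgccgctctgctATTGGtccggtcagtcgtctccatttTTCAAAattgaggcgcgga
Ube2c (chr2:164769829-164769928, plus strand): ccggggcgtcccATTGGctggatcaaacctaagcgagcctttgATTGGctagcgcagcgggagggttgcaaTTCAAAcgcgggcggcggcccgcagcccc
Mki67 (chr7:135716380-135716479, minus strand): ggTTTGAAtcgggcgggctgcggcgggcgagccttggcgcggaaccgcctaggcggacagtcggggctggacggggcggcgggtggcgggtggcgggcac
In Cdk1, Cks1b, Cdc20, Top2a, Kif11 and Ube2c the last CHR letters end 10 to 24 bases before the start, whereas in Mki67 they lie at the far end of the printed stretch. The places of all matches are drawn in the map of motif letters. The letters are a description of the windows and do not mark bound sites.

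**Figure D1:**
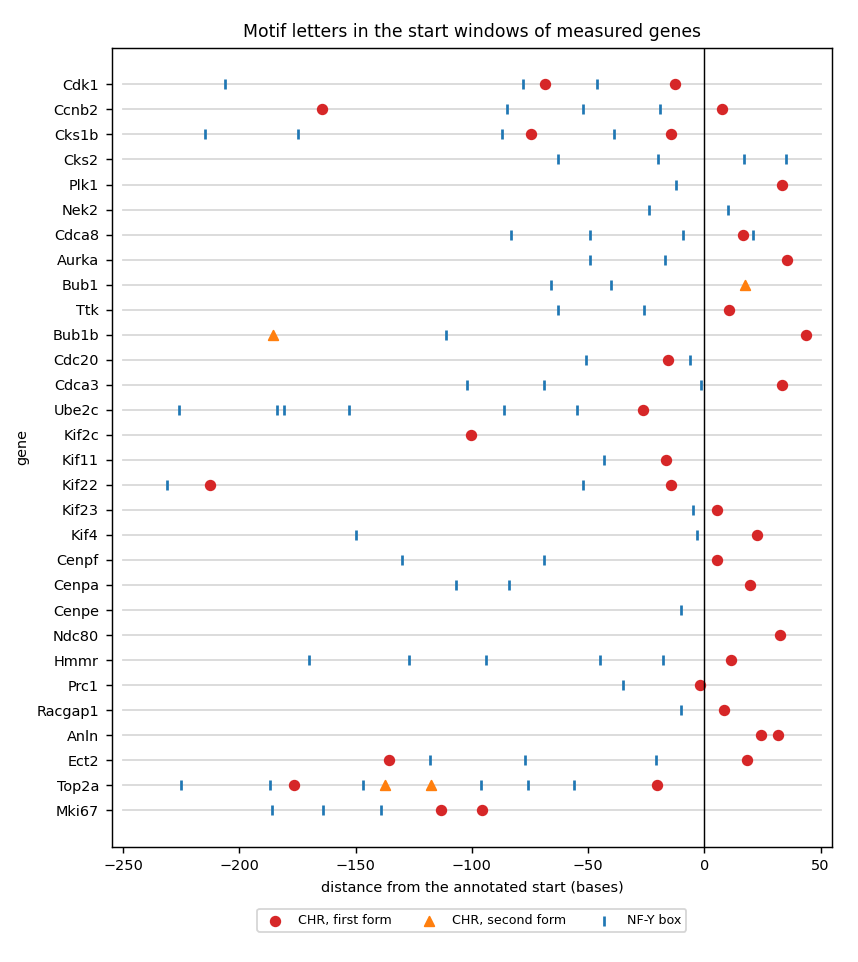
Places of the CHR letters (circles for TTTGAA, triangles for TTCGAA) and of CCAAT letters (bars, labelled as the NF-Y box) in the start windows of measured genes, with the distance from the annotated start in bases on the x axis and 1 gene per line. One window is drawn per gene and genes without a match are left out. Circles gather within 50 bases of the start.

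As a whole, the mitosis and G2 genes had lower values in treated Tregs, by a modest amount and with no gene passing the test. Of the 41 genes, 33 had a difference below 0, where 41.5% of all genes did, and 8 had one above 0. The median difference was −0.44, a level 1.36-fold lower, against +0.05 over all genes. The differences ran from −1.10 for Aurkb, encoding the Aurora B kinase, to +0.22 for Ndc80, encoding a kinetochore protein. In bulk RNA, fewer dividing cells and less of these transcripts per cell cannot be told apart.

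For all 10 genes with the smallest p the limma adjusted p was 0.914. By limma's moderated test with Benjamini-Hochberg adjustment over all 18193 genes, 0 of the 41 genes passed an adjusted p of 0.05, and 0% of all genes did in either direction. Without untreated replicate 3, 32 of all genes passed and 0 of the 41 did. Without the adjustment, p was under 0.05 with a lower level in 12 of the 41 genes (3.17% of all genes) and with a higher level in 0 (1.82% of all genes). The treated arrays lay entirely below the untreated ones in 11 of the genes (5.24% of all genes), and entirely above them in 0 (5.61% of all genes). At least 1.5-fold lower were 12 genes, where 4.65% of all genes were, and 0 were at least 1.5-fold higher, where 3.21% were. The count of 1.5-fold lower genes was 20 without treated replicate 1. Most of the genes are well expressed, and among genes with a mean log2 value of 8 or more, 27 of 32 had a difference below 0. These 32 held all 12 genes that were lower at the unadjusted threshold. The background at that level was 53.7% below 0, with 6.23% lower and 2.18% higher at the unadjusted threshold and 8.58% with all treated arrays below the untreated ones. The count of 12 became 5 without treated replicate 2, without treated replicate 3 or without untreated replicate 1.

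Single arrays stood apart from the rest in different measures. Treated replicate 2 had the lowest mean correlation with the other arrays (0.955, against 0.962 to 0.974) and the narrowest spread of values, with a log2 interquartile range of 2.59 against 2.82 to 3.01. Without it, 28 of the 41 genes had a difference below 0 and their median was −0.31. Untreated replicate 3 had the lowest mean of the myeloid and dendritic markers, at 6.89, while its mean correlation and interquartile range lay inside the ranges above. Without it, 33 genes were below 0, 10 were lower at the unadjusted threshold, and the median was −0.42.

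The means of B cell and plasma cell markers moved with the groups, while those of erythroid and myeloid markers overlapped between the groups. The mean of 12 B cell markers was 6.65, 6.72 and 6.64 in treated replicates 1, 2 and 3, against 9.20, 9.11 and 7.10 in untreated replicates 1, 2 and 3. All 12 had a negative difference, and their most abundant genes were Cd22, Cd79b and Ms4a1, all encoding B cell surface proteins. The mean of the 41 mitosis and G2 genes was 9.22, 8.74 and 8.97 in the treated replicates and 9.49, 9.30 and 9.31 in the untreated ones. The mean of 13 erythroid markers, among them Car2, Tfrc and Car1, was 9.64, 8.18 and 8.51 in treated and 9.66, 9.47 and 6.98 in untreated replicates. Over the 3 treated arrays, and between untreated replicates 1 and 2, a higher erythroid mean went with a higher mitosis and G2 mean. Untreated replicate 3 had the lowest erythroid mean of the 6 arrays and a mitosis and G2 mean of 9.31. The mean of 17 myeloid and dendritic markers, led by S100a8, S100a9 and Lyz2, was 9.89, 8.72 and 9.77 in treated and 9.40, 9.28 and 6.89 in untreated replicates. These means had the same order as the erythroid ones over those arrays, so the order was not particular to erythroid markers. Untreated replicate 3 was again the lowest. The 10 plasma cell markers averaged 8.18, 8.30 and 8.22 in treated and 9.69, 9.85 and 8.65 in untreated replicates. The 3 with the highest mean, Xbp1, Txndc5 and Prdm1, differed by −0.44, −0.17 and −0.40. Jchain, the antibody joining chain, measured 5.73, 5.83 and 5.60 in treated and 12.50, 13.43 and 7.04 in untreated replicates, the most negative difference of all genes (−5.27). Pou2af1, a B lineage coactivator, differed by −3.01. Foxp3, Jchain and Pou2af1 were named after their values were seen. The median differences of the T cell and Treg, NK and cytotoxic, and thymocyte markers were +0.34, −0.14 and −0.32. For the erythroid and the myeloid and dendritic markers they were −0.02 and +1.04. RNA quality also varied. The 3′ minus 5′ difference of the actin control probe sets was 1.42, 1.94 and 3.62 in treated and 1.31, 1.95 and 0.92 in untreated replicates, so treated replicate 3 had the strongest 3′ bias. For the Gapdh controls it was 3.38, 3.65 and 4.10 in treated and 3.23, 3.87 and 2.02 in untreated replicates. The part of B cells, plasma cells, erythroid and myeloid cells and of RNA quality in the results was not tested.

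The single arrays did not form 2 even groups. Treated replicate 2 had the lowest of the 6 values in 19 of the 41 genes (21.7% of all genes) and treated replicate 3 in 13 (17% of all genes), while treated replicate 1 had it in 3 (13%). Untreated replicate 1 had the highest value in 15 genes (7.85% of all genes), untreated replicate 3 in 9 (11.9%) and untreated replicate 2 in 8 (17.1%). Treated replicates 1, 2 and 3 had it in 3, 1 and 5 genes, against 6.39%, 34.9% and 21.8% of all genes. Treated replicates 2 and 3 lay below every untreated array in 30 genes (26.5% of all genes) and 24 genes (25.9%). Treated replicate 1 did so in 15 genes (24.4%) and lay within or above the untreated values in the other 26. By these counts the values below all untreated arrays lay mainly in treated replicates 2 and 3. Yet without treated replicate 3, 35 genes were below 0 and the median difference was −0.42. Without untreated replicate 1, 31 genes were below 0 and the median was −0.38. The treated replicates also spread more widely than the untreated ones in 27 of the 41 genes (65.9%), as they did in 65.2% of all genes.

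**Figure D2:**
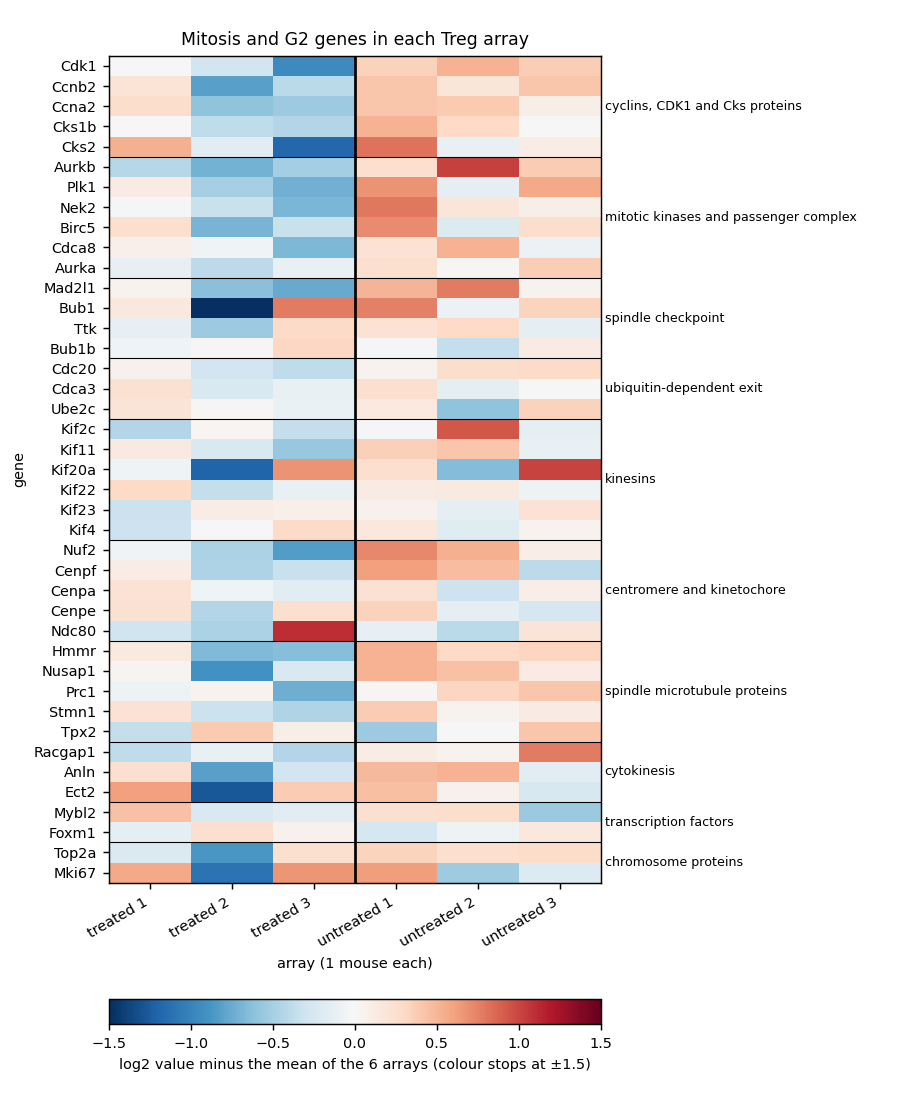
Heat map of the 41 mitosis and G2 genes (rows, grouped by role) in the 3 treated and 3 untreated arrays (columns), coloured by the log2 value minus the gene's mean over the 6 arrays. Treated replicates 2 and 3 are blue in most rows, treated replicate 1 is pale, and untreated replicate 1 is red in most rows.

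Cyclins, CDK1 and the Cks proteins, the engine of mitotic entry, had lower mean values throughout. All 5 measured genes had a difference below 0 (median −0.59), and in Cdk1, Cks1b and Ccnb2 the unadjusted p was under 0.05. Cdk1, the kinase itself (probe set 1448314_at), measured 10.02, 9.72 and 9.07 in treated Tregs and 10.36, 10.53 and 10.39 in untreated Tregs. All treated values lay below the untreated ones, which were close together, and the difference was −0.82 (95% interval −1.43 to −0.22, limma adjusted p = 0.914). Ccnb2, encoding cyclin B2, measured 9.98, 8.96 and 9.38 in treated and 10.19, 9.96 and 10.19 in untreated Tregs. The highest treated value overlapped the lowest untreated one, and the difference was −0.68 (95% interval −1.31 to −0.05, limma adjusted p = 0.914). Ccna2, encoding cyclin A2, differed by −0.59, with treated replicate 1 at 10.66 and the other treated values at 9.80 and 9.85.

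The Cks proteins are small subunits that bind CDK1 and help it reach its substrates. Cks1b measured 11.72, 11.34 and 11.29 in treated and 12.25, 12.02 and 11.73 in untreated Tregs, with groups that touched but did not overlap (difference −0.55, 95% interval −1.04 to −0.06). Its paralog Cks2 had nearly the same difference (−0.55) with far wider scatter, at 12.51, 11.80 and 10.80 in treated and 12.80, 11.86 and 12.09 in untreated Tregs. The interval of Cks2 ran from −1.60 to 0.51 and the groups overlapped. Without treated replicate 3 the difference of Cks2 was −0.10.

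The Polo, Aurora and NIMA-related kinases and the passenger complex had a difference below 0 in all 6 genes, with a median of −0.61, and in 4 the unadjusted p was under 0.05. Aurkb (probe set 1424128_x_at), the kinase of the chromosomal passenger complex, measured 8.33, 8.04 and 8.25 in treated and 9.01, 9.78 and 9.13 in untreated Tregs. These values left a clear gap between the groups, and the level was 2.14-fold lower (difference −1.10, 95% interval −1.66 to −0.54, unadjusted p = 0.0022, limma adjusted p = 0.914). A further probe set of Aurkb gave −1.06. Nek2 is a centrosome kinase gene. It measured 9.15, 8.84 and 8.49 in treated and 9.97, 9.36 and 9.26 in untreated Tregs, without overlap (difference −0.70, 95% interval −1.32 to −0.09), but its 3 dimmer probe sets gave −0.40, +0.04 and +0.24. Plk1, the Polo kinase, measured 9.01, 8.39 and 8.16 in treated and 9.56, 8.74 and 9.46 in untreated Tregs. Treated replicate 1 lay above the lowest untreated array, and the difference was −0.73 (95% interval −1.45 to −0.01). Aurka, the spindle pole kinase, differed by −0.42 without overlap, and its other, dim probe set by +0.38. Birc5 and Cdca8, which encode the passenger subunits survivin and borealin, differed by −0.52 and −0.43 with overlapping groups. The other probe sets of Cdca8, both lower, gave −0.48 and −0.60.

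The spindle checkpoint genes were uneven. Mad2l1, encoding the checkpoint protein MAD2, measured 9.66, 8.99 and 8.85 in treated and 10.12, 10.39 and 9.67 in untreated Tregs. The groups did not overlap, though treated replicate 1 nearly reached untreated replicate 3 (difference −0.89, 95% interval −1.55 to −0.23). Bub1, encoding a checkpoint kinase, measured 7.87, 5.78 and 8.49 in treated and 8.46, 7.62 and 8.04 in untreated Tregs. Its difference of −0.66 came from treated replicate 2, and without that array it was +0.14. Ttk, which encodes the checkpoint kinase MPS1, differed by −0.26. Bub1b, encoding the checkpoint protein BUBR1, differed by +0.18 (95% interval −0.29 to 0.64), with 7.58, 7.67 and 7.97 in treated and 7.62, 7.30 and 7.78 in untreated Tregs. The groups overlapped.

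Of 3 genes of ubiquitin-dependent exit from mitosis, 0 had an unadjusted p under 0.05. Cdc20, the activator that the checkpoint restrains, measured 10.51, 10.16 and 10.06 in treated and 10.51, 10.71 and 10.74 in untreated Tregs. Treated replicate 1 equalled the lowest untreated value to 2 decimals, and the difference was −0.41 (95% interval −0.84 to 0.02). Ube2c, the ubiquitin-conjugating enzyme that works with APC, measured 9.07, 8.90 and 8.78 in treated and 9.03, 8.28 and 9.23 in untreated Tregs, with overlap (difference +0.07). Cdca3, which promotes degradation of the mitotic inhibitor WEE1, differed by −0.07.

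All 6 kinesins had a difference below 0, but their median was −0.26 and 0 had an unadjusted p under 0.05. Kif2c, a microtubule-depolymerising kinesin, differed by −0.52 and Kif11, the motor that separates spindle poles, by −0.44. Kif20a, a kinesin of late mitosis and cytokinesis, ranged from 5.94 to 7.81 in treated and from 6.49 to 8.15 in untreated Tregs, a spread wider than its difference of −0.40. Kif22, a chromosome arm motor, differed by −0.11, Kif23, a midzone motor, by −0.09 and Kif4, a chromokinesin, by −0.02. The other probe sets of Kif22 gave +0.27 and +0.18, and those of Kif2c +0.05, −0.51 and +0.11. Those of Kif11 and Kif23 were all below 0. The signs of Kif20a, Kif22, Kif23 and Kif4 turned when some single arrays were left out.

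At the centromere and kinetochore, 3 of 5 genes were below 0 and the median was −0.01. Nuf2 and Ndc80 encode partner subunits of the complex that grips microtubules, yet their values ran apart. Nuf2 (probe set 1430811_a_at) measured 8.75, 8.32 and 7.96 in treated and 9.52, 9.33 and 8.90 in untreated Tregs. Its groups did not overlap, and the level was 1.87-fold lower (difference −0.90, 95% interval −1.52 to −0.29, unadjusted p = 0.0100, limma adjusted p = 0.914). Ndc80 measured 6.44, 6.27 and 7.86 in treated and 6.62, 6.34 and 6.95 in untreated Tregs. Treated replicate 3 alone lay above the untreated arrays, and the difference was +0.22 (95% interval −0.77 to 1.22), or −0.28 without that array. The difference between Nuf2 and Ndc80 was not tested. Cenpf, a kinetochore protein, differed by −0.46, the kinetochore motor gene Cenpe by +0.03 and the centromeric histone gene Cenpa by −0.01.

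Among proteins of spindle microtubules, 4 of 5 genes were below 0, with a median of −0.50. Hmmr, encoding a spindle pole protein, measured 9.72, 8.91 and 8.93 in treated and 10.10, 9.86 and 9.90 in untreated Tregs, without overlap (difference −0.77, 95% interval −1.35 to −0.18). Its 4 other probe sets were also below 0. Nusap1, which bundles spindle microtubules, measured 10.06, 9.11 and 9.79 in treated and 10.53, 10.45 and 10.14 in untreated Tregs, again without overlap (difference −0.72, 95% interval −1.36 to −0.09). Prc1, which crosslinks the spindle midzone, differed by −0.50 and the microtubule destabiliser gene Stmn1 by −0.38. Tpx2, the activator of Aurora A, measured 7.94, 8.69 and 8.38 in treated and 7.75, 8.31 and 8.71 in untreated Tregs. These values overlapped throughout (difference +0.08, 95% interval −0.62 to 0.79). The other probe sets of Tpx2 gave −0.02, −0.25 and −0.17.

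The 3 cytokinesis genes were all below 0. Racgap1, a subunit of the midzone complex centralspindlin, measured 7.89, 8.16 and 7.84 in treated and 8.39, 8.32 and 9.05 in untreated Tregs. No treated value reached the untreated ones (difference −0.62, 95% interval −1.18 to −0.07). Its 2 other probe sets gave −0.53 and, for a dim one, +0.35. Anln, encoding the cleavage furrow protein anillin, differed by −0.57 with overlap. Ect2, the exchange factor that activates RhoA, differed by −0.19, with treated replicate 2 at 6.75 and the other arrays at 7.79 to 8.64. Without treated replicate 2, the difference of Ect2 was +0.40.

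The transcription factors of the wave had differences near 0. Foxm1 measured 7.96, 8.34 and 8.17 in treated and 7.83, 8.02 and 8.26 in untreated Tregs, with overlap (difference +0.12, 95% interval −0.32 to 0.56). All 4 of its probe sets had a difference above 0, and 0 passed. Mybl2, encoding B-MYB, differed by +0.03 (95% interval −0.65 to 0.72). Its mean log2 value of 6.37 lay close to the dim floor of 6.

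The 2 most used markers of proliferation differed in pattern. Mki67, encoding the Ki-67 protein that coats mitotic chromosomes, measured 12.07, 10.40 and 12.17 in treated and 12.13, 10.97 and 11.29 in untreated Tregs. Treated replicates 1 and 3 lay near the highest untreated array, and treated replicate 2 was the lowest of all (difference +0.08, 95% interval −1.14 to 1.31). Without treated replicate 2 the difference was +0.65, and without treated replicate 3 it was −0.23. Top2a, encoding the DNA topoisomerase that disentangles chromosomes, measured 10.63, 9.97 and 11.10 in treated and 11.18, 11.11 and 11.13 in untreated Tregs. The untreated arrays were nearly alike, the treated ones all lay below them, and treated replicate 3 nearly reached them (difference −0.57, 95% interval −1.23 to 0.10). Mki67 and Top2a belong to 6 genes, with Bub1, Kif20a, Ndc80 and Ect2, in which treated replicate 3 exceeded treated replicate 2 by at least 1 log2 unit. Cks2 alone showed the opposite gap of at least 1.

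**Figure D3:**
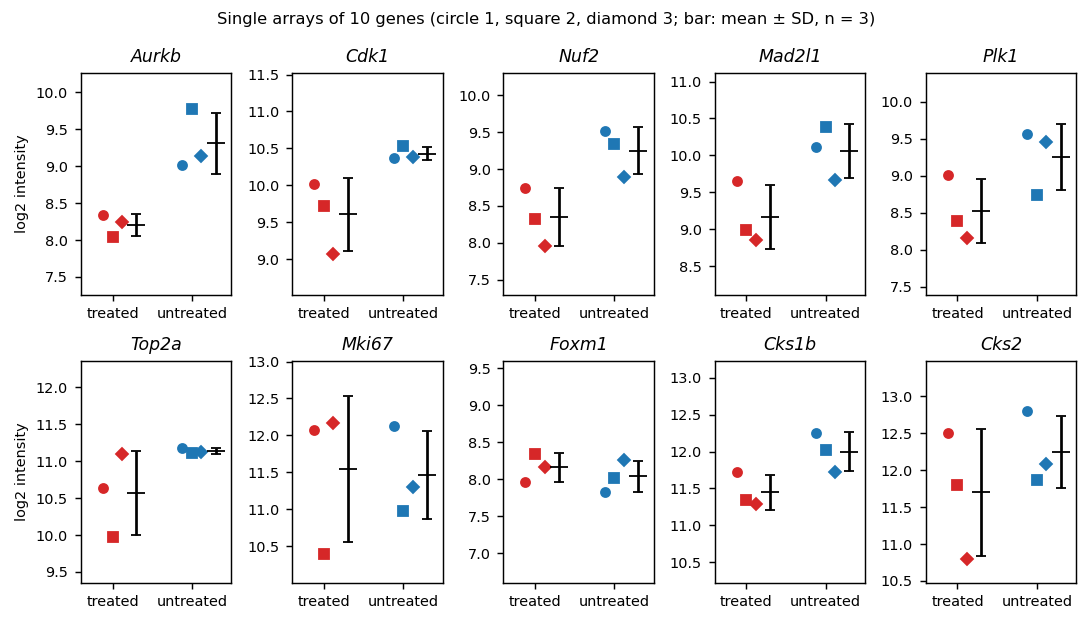
Log2 intensity of 10 genes in each treated (red) and untreated (blue) array, with replicate 1 as a circle, 2 as a square and 3 as a diamond, and a bar for the mean ± SD (n = 3). Aurkb, Cdk1, Nuf2, Mad2l1, Top2a and Cks1b show no overlap of the groups, while Plk1, Mki67, Foxm1 and Cks2 overlap.

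**Figure D4:**
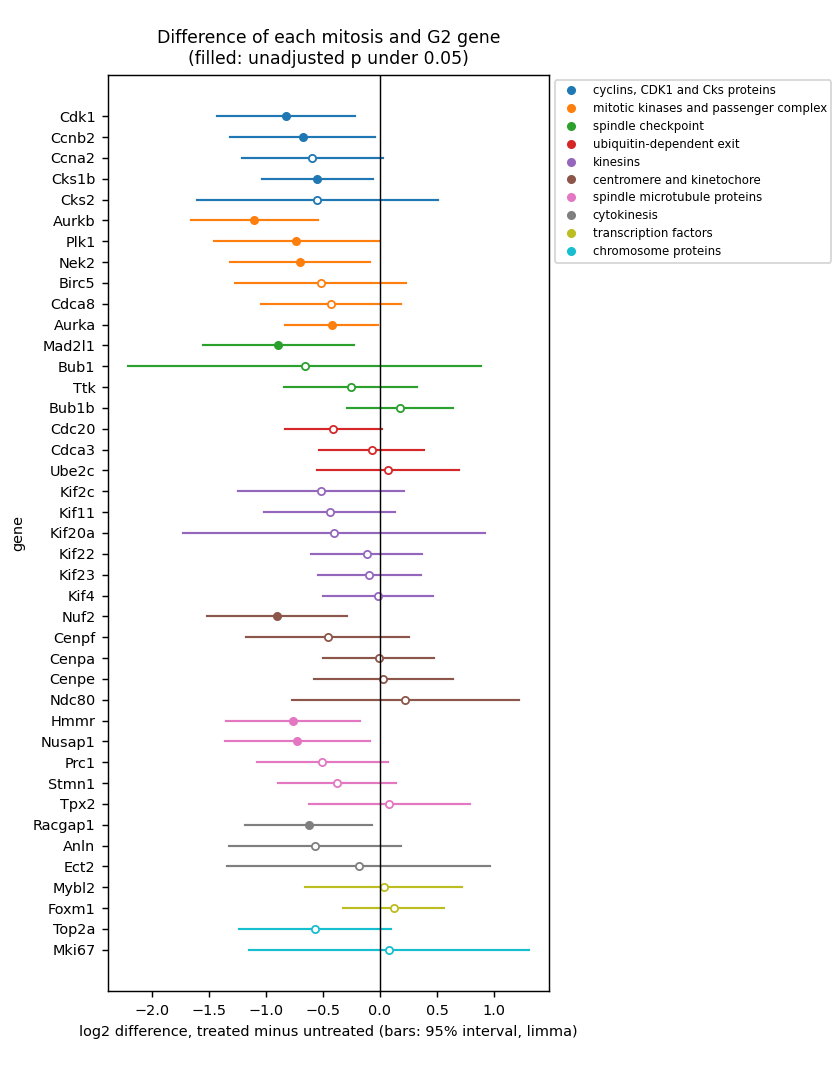
Log2 difference of each of the 41 genes, treated minus untreated, with its 95% interval from limma, coloured by role and filled where the unadjusted p was under 0.05. The 12 filled genes all lie below 0, and the kinases and cyclins hold 7 of them.

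Other probe sets of the genes were partly at odds with the brightest one. The 41 genes had 92 probe sets, of which 66 had a difference below 0, where 43% of all 34945 probe sets with 1 symbol did. The unadjusted p was under 0.05 with a lower level in 17 of the 92 (3.32% of all probe sets) and with a higher level in 0 (1.57%). Of the 29 genes with several probe sets, 18 had the same sign in all of them and 11 did not. With the mean of the probe sets in place of the brightest, 33 genes were below 0 and the median was −0.27. This brought 8 genes closer to 0 by over 1.5 times. Among those lower at the unadjusted threshold, these were Aurka (−0.02), Nek2 (−0.21) and Racgap1 (−0.27). The others were Bub1 (−0.36), Cdc20 (−0.21), Kif2c (−0.22), Cenpf (−0.14) and Top2a (−0.16).

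Genes around the 41 gave a partly similar picture. Of 60 other mitotic genes, 48 had a difference below 0 (median −0.32), 9 were lower and 0 higher at the unadjusted threshold, and 0 passed the adjusted test. Over all genes, 41.5% were below 0, with 3.17% lower and 1.82% higher at the unadjusted threshold. Melk, a kinase gene, measured 8.54, 8.32 and 8.21 in treated and 9.01, 9.45 and 8.96 in untreated Tregs, without overlap. Cep55, an abscission gene, differed by −1.20, the centromere gene Cenpi by −0.77 and Sgo2a, a protector of cohesion, by −0.72. Without treated replicate 2, 6 of the 60 were lower and their median was −0.18, and without untreated replicate 1 or 2, 4 were lower. Without treated replicate 1 or without untreated replicate 3, 16 were lower.

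Of 31 measured S phase genes, 26 were below 0 (41.5% of all genes), with a median of −0.45. Yet 1 alone, the primase gene Prim1 (−0.73), was lower at the unadjusted threshold (3.17% of all genes). The next smallest p values belonged to Rfc3 (−0.77), Pcna (−0.82) and Uhrf1 (−0.87), which encode a clamp loader subunit, the sliding clamp and a maintenance methylation factor. The count was 11 without treated replicate 1, 9 without untreated replicate 3 and 0 without any one of the other arrays. Leaving out treated replicate 1 gave a median of −0.72 for the S phase genes, whereas it was −0.26 when treated replicate 2 and −0.29 when untreated replicate 1 was left out.

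**Figure D5:**
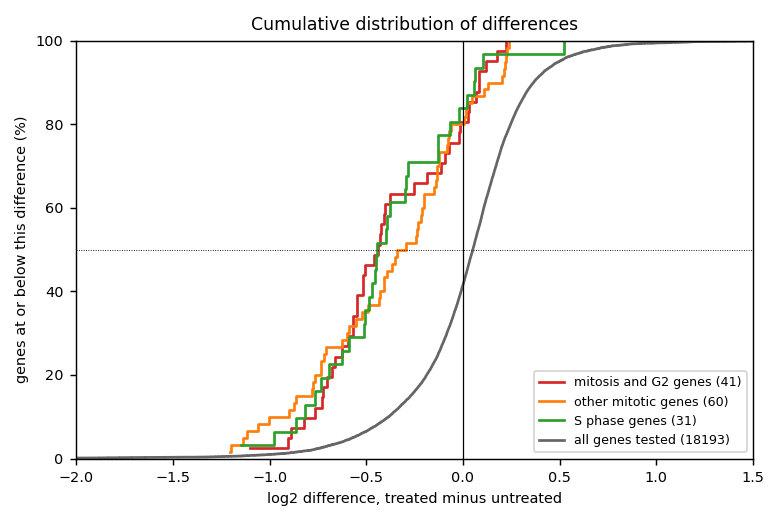
Cumulative share of genes (y axis, percent) at or below each log2 difference, treated minus untreated (x axis), for the 41 mitosis and G2 genes, 60 other mitotic genes, 31 S phase genes and all 18193 genes. The medians are −0.44, −0.32, −0.45 and +0.05.

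Among 10 components of MuvB and of the related repressor complex DREAM, Lin9, a core subunit of MuvB, measured 7.22, 6.53 and 6.62 in treated and 7.80, 8.15 and 7.51 in untreated Tregs, without overlap (difference −1.03). Rbl1, encoding the pocket protein p107, differed by −0.95, also without overlap, while Lin54, the subunit that binds the CHR, differed by −0.56 and Rbbp4 by −0.23. In all, 5 of the 10 were below 0 and 2 were lower at the unadjusted threshold. For this and the next lists, the shares over all genes were 41.5% below 0, 3.17% lower and 1.82% higher at that threshold. Of 15 APC subunits and partners, 6 were below 0 (median +0.05). Fbxo5, encoding the APC inhibitor EMI1, differed by −1.02 and Cdc27 by −0.58, while Cdc26 differed by +0.58 and Cdc23 by −0.37. G1 cyclins and kinases had 4 of 9 below 0, with Myc at −0.86, Ccnd3 at +0.33, Cdk4 at −0.44 and Cdk2 at −0.25. Of 17 genes that restrain division, 12 were below 0 (median −0.05), and 2 were lower and 1 was higher at the unadjusted threshold. Btg2, an antiproliferative gene, differed by −0.58, Ccng2, encoding the atypical cyclin G2, by −0.54 and Tob1 by −0.66. Cdkn1a, encoding the CDK inhibitor p21, differed by +0.56, with 8.48, 8.99 and 9.04 in treated and 8.31, 8.15 and 8.37 in untreated Tregs. The groups of Cdkn1a did not overlap, and no gene of these lists passed the adjusted test.

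Lower values were found both with and without CHR letters in the promoter window. Of 27 measured genes with CHR letters in the window, 23 were below 0, the median was −0.43 and 7 were lower at the unadjusted threshold. Of 8 measured genes with a window and no such letters, 6 were below 0, the median was −0.63 and 4 were lower. These 4 were Mad2l1, Nek2, Nuf2 and Nusap1. Over all genes, 41.5% were below 0 and 3.17% were lower at the unadjusted threshold. Whether the letters bear on the differences was not tested. Among the genes printed above, Cdk1 and Cks1b were lower at the unadjusted threshold, while Ube2c and Mki67 had differences near 0.

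Ages were mixed within both groups. Among mice aged 29 days (2 treated, 1 untreated), 38 of the 41 genes had a difference below 0 (43.5% of all genes), with a median of −0.49. Among mice aged 28 days (1 treated, 2 untreated), 29 did (49.7% of all genes), with a median of −0.37. Each age had a single array in one arm, which at 29 days was untreated replicate 1, so these values carry no test.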

How the data were processed

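Expression was measured on Affymetrix M430v2 arrays with RNA amplified in 2 rounds, per the labels' protocols. The deposited values are intensity values on a linear scale that the authors made with RMA in GenePattern, per the series' design text. For the RMA version, the sources used here name none. Intensities ran from 5.47 to 29584.9, with array medians of 85.3 to 92.4. A change shared by most transcripts could not be seen after this normalization.

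Log2 was taken here with no further scaling. Of 45101 probe sets, 64 controls were left out. Symbols came from the platform annotation, updated by gene identifier for 34741 of 34945 probe sets with 1 symbol. The fit used limma 3.58.1 (R 4.3.3) on 45037 probe sets, with Benjamini-Hochberg adjustment over 18193 genes. With 1 mouse per array, p reflects how far single mice scatter. The genes and lists were chosen with earlier results of these data known, so lists are described by counts and not tested. Alternatives were a replicate block, age, dim probe sets left out, probe set means, 2 other scalings, other variance settings, array weights, an offset of 32 and single arrays left out. Genes given full statistics were those with the smallest p, up to 10 lower and 6 higher, with Mki67, Top2a, Cdk1, Ccnb1 (not measured), Plk1, Foxm1, Cks1b and Cks2 always shown, up to 4 per related list and 3 per marker list. On simulated data of 3 against 3 arrays over 18193 genes, the fit called 13.2% of genes altered 2-fold and 83.2% of those altered 4-fold. Each run had 200 genes altered by 2- to 16-fold and 9.2 false calls on average. Noise was drawn independently for each array, so no simulated array stood apart. These shares therefore do not give what the measured arrays would detect. In the measured data Jchain, at −5.27, did not pass (limma adjusted p = 0.914). Figures were drawn with matplotlib 3.10.9.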

Additional observations from a re-analysis of the deposited data

How the results depend on the processing

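Under every alternative tried, 0 of the 41 mitosis and G2 genes passed an adjusted p of 0.05, and none passed at 0.1. Between 28 and 36 of them had a difference below 0 when single arrays were left out. Those lower at an unadjusted p under 0.05 numbered 5 to 16 when single arrays were left out. The median of the 41 genes ranged from −0.58 to −0.31 in those fits, and was −0.27 with the mean of probe sets. Genes at least 1.5-fold lower numbered 9 to 20 when single arrays were left out. They numbered 8 with the mean of probe sets and 6 with array weights (weight 0.242 for treated replicate 2). Over all genes the calls numbered 0 to 32 when single arrays were left out, 32 without untreated replicate 3, 5 with array weights, 1 with median centring and 2 at an adjusted p of 0.1. In the fit with the replicate block, 16 of the 41 genes were lower at an unadjusted p under 0.05 and the median stayed at −0.44. Same-numbered treated and untreated arrays correlated in their deviations from the group mean at 0.51, 0.01 and 0.10. Differently numbered ones did so at −0.47 to 0.23. These values do not settle whether the numbers mark pairs, and the main fit did not use them as such. The scan file numbers in the labels are adjacent for same-numbered arrays, and the labels do not say what they mark.

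In 27 of the 41 genes no alternative turned the sign. With age as a covariate, Ube2c (−0.0101), Kif4 (+0.0182), Cenpe (−0.0055) and Mybl2 (−0.0755) turned. With array weights, Cdca3 (+0.0137), Kif22 (+0.0829), Cenpa (+0.0302) and Ect2 (+0.21) turned. With the mean of probe sets, Kif22 (+0.11), Cenpa (+0.0427), Cenpe (−0.25) and Tpx2 (−0.0905) turned, and with quantile normalization Cenpa (+0.0932). Leaving out single arrays gave ranges across 0 for Bub1 (−1.22 to 0.14), Ube2c (−0.21 to 0.26), Cdca3 (−0.21 to 0.0347), Kif20a (−0.84 to 0.10), Kif22 (−0.29 to 0.0336), Kif23 (−0.19 to 0.0464), Kif4 (−0.16 to 0.13), Cenpa (−0.17 to 0.10), Cenpe (−0.0895 to 0.25), Ndc80 (−0.28 to 0.51), Tpx2 (−0.17 to 0.31), Ect2 (−0.54 to 0.40), Mybl2 (−0.24 to 0.17) and Mki67 (−0.23 to 0.65). The cause of these turns was not tested. The comparisons within each age were chosen after seeing the data.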
